A study of Mus musculus with 4 samples.

Results

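The TGF-beta pathway was followed through 10 genes: the ligand genes Tgfb1, Tgfb2 and Tgfb3, the latent binding protein genes Ltbp1 and Ltbp2, the matrix genes Thbs1 and Tgfbi, and the feedback genes Smad7, Skil and Pmepa1. They were chosen by name, with earlier results of these data known. Their counts beside the shares of all genes below are therefore descriptive and not independent support. The array annotation gave them 24 probe sets (the array's sets of short probes against a transcript) out of 34958 with a single gene symbol. Each gene is represented by its probe set of highest mean level, called the main probe set. All 10 were among the 12264 of 18194 genes that passed the filter on low values, and 9 lay above the lowest deposited value on every array.

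RNA came from Comma D beta, a mouse mammary epithelial line. All groups were grown overnight in the same DMEM F12 medium, which held 2% serum together with EGF (10 ng/ml), insulin (5 ug/ml) and an additive labelled PSA (1%). Cultures then either received doxycycline (dox) at 100 ng/ml for 1 day or stayed untreated, and 200k cells of each Sca1 class were sorted. The 4 groups are thus Sca1+ and Sca1- cells, each untreated or with dox, and each has 1 array. The series title names Bcl11b. The labels do not say which construct dox controls, or whether the line is 1 clone. With no replicate, no difference between single arrays has a replicate check, and genes are counted as higher or lower by size alone, at 2-fold or more.

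TGF-beta ligands are secreted in a latent form, bound to their own propeptide. Latent TGF-beta binding proteins tether this complex to the matrix, and integrins, proteases and thrombospondin can release the ligand. The ligand then joins type II and type I receptor kinases, which phosphorylate Smad2 and Smad3. These enter the nucleus with Smad4 and raise matrix genes as well as their own inhibitors. In mammary epithelium the pathway is known for restraining growth of ducts and for promoting mesenchymal traits.

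Levels are log2 values. The deposited table holds no value under a floor of 3.32, the log2 of 10, where each array had 44.8% to 48.0% of its probe sets. A fold against the floor is a lower bound. All 8 mammary epithelial markers read lay above the floor on every array, and 2 were at least 2-fold lower with dox in both fractions: Krt5, a basal keratin, by 15.9-fold and 8.76-fold in Sca1+ and Sca1- cells, and Krt8, a luminal keratin, by 3.32-fold and 3.89-fold. Among all genes, 8.56% had a drop of that size in both. Krt14, a further keratin, was 1.07-fold and 1.30-fold higher with dox in Sca1+ and Sca1- cells, and Cdh1 1.27-fold and 1.11-fold higher. Epcam, Krt17 and Trp63 were lower in both, none by 2-fold in Sca1- cells, and Krt18 differed in direction between the fractions. The list's summed linear level was 14664 and 15325 on the untreated Sca1+ and Sca1- arrays and 10179 and 11885 with dox. The gene that encodes Sca1 was not analysed here, so the sort was not checked on it. By its main probe set Bcl11b read 6.87 in untreated Sca1+, 6.29 in untreated Sca1-, 12.11 in dox Sca1+ and 11.99 in dox Sca1- cells. None of its other 3 probe sets was higher with dox. In Sca1+ cells they read 7.52, 5.85 and 4.90 untreated, and all 3 were at the floor with dox. In Sca1- cells the first went from 6.21 to 5.38 and the second from 5.14 to 4.16, while the third stayed at the floor. The difference between 3′ and 5′ control probe sets is a measure of RNA integrity. For actin it was 0.69 and 0.81 on the untreated arrays and 0.83 and 0.91 on the dox arrays. For Gapdh it was -0.10 and -0.05 on the untreated arrays and -0.01 and 0.11 on the dox arrays. The fibroblast list had a summed linear level of 78.9 and 95.4 on the untreated arrays against 756 and 422 on the dox arrays. It had 1 of 7 genes above the floor on each untreated array, and 4 and 3 with dox. Dcn, the matrix proteoglycan decorin, was at least 68.0-fold and 34.2-fold higher with dox, Lum at least 1.23-fold and 1.76-fold, and Thy1 at least 1.69-fold in Sca1+ cells only. Pdgfra was above the floor on every array and 1.09-fold and 1.62-fold lower with dox, while Pdgfrb, Col3a1 and Dpt were at the floor on every array. Without Dcn the sum ran from 68.9 to 85.4. Of 6 leukocyte markers, 2 were above the floor on every array, and the list's sum ran from 67.0 to 74.0 untreated and from 134 to 139 with dox. Cd68 was 6.91-fold and 5.27-fold higher with dox. Without it the sum ran from 56.6 to 67.6, and Ptprc was at the floor throughout. Of 5 endothelial markers 0 to 2 were above the floor (sums 50.0 to 53.6), and of 4 platelet markers 1 or 2 (sums 59.2 to 75.8). The part of RNA integrity and of these markers in the results below was not tested.

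Dox was accompanied by lower levels of the matrix genes Tgfbi and Thbs1 and of the feedback genes Smad7 and Pmepa1, a higher level of Ltbp1, and differences under 2-fold in the ligand genes Tgfb1 and Tgfb2. In Sca1+ cells 4 of the 10 genes (Tgfbi, Thbs1, Smad7 and Pmepa1) were at least 2-fold lower with dox, where 12.9% of all genes were, and 1 (Ltbp1) was at least 2-fold higher, where 8.47% of all genes were. In Sca1- cells 4 (Tgfbi, Thbs1, Pmepa1 and Ltbp2) were lower against 11.3% of all genes, and Ltbp1 alone was higher against 7.2%. In both fractions 3 were lower (Tgfbi, Thbs1 and Pmepa1; 8.56% of all genes) and 1 higher (Ltbp1; 5.29%). The median log2 difference of the 10 genes was -0.74 in Sca1+ and -0.70 in Sca1- cells, beside 0.03 and 0.02 over all 12264 genes. In such bulk samples, fewer cells that express a gene and less RNA per cell cannot be told apart.

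**Figure D1:**
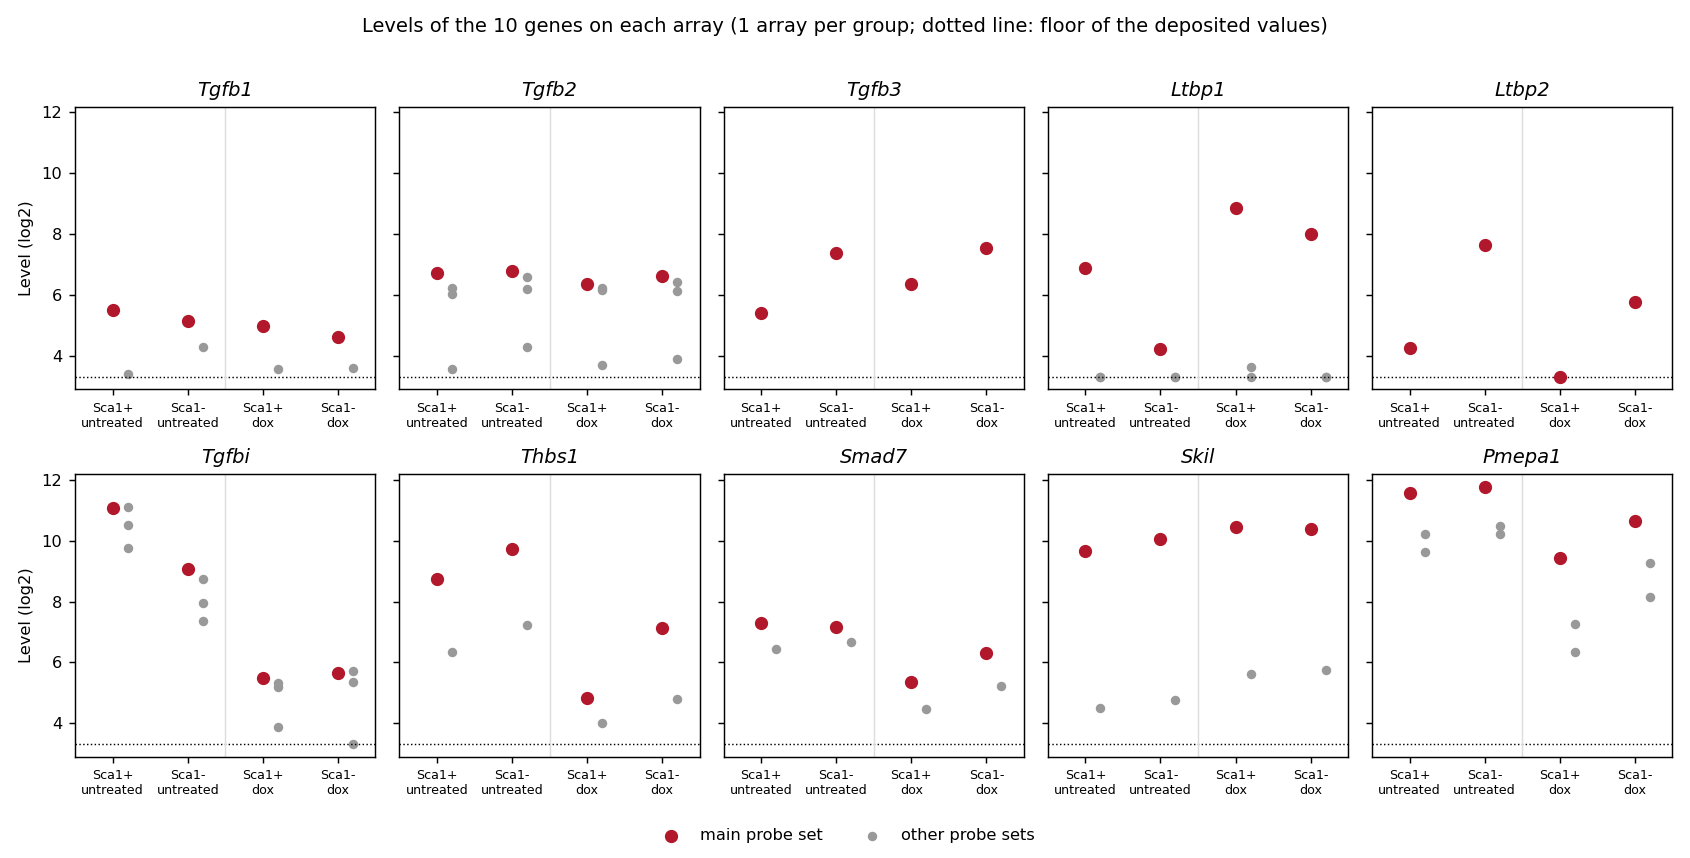
Level (log2, vertical axis) of each of the 10 genes on the 4 arrays (horizontal axis), with the main probe set as large points and other probe sets as small grey points set slightly to the right. The dotted line is the floor at 3.32. Tgfbi is high on both untreated arrays and near 5.5 on both dox arrays, while Ltbp1 is lowest in untreated Sca1- cells.

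Of the ligand genes, Tgfb1 and Tgfb2 differed by less than 2-fold with dox on all of their probe sets. Tgfb1, the isoform most often studied in epithelia, read 5.51 in untreated Sca1+ cells, 5.16 in untreated Sca1-, 4.99 in dox Sca1+ and 4.61 in dox Sca1- cells. Both dox arrays were below both untreated arrays, by 1.44-fold in Sca1+ and 1.46-fold in Sca1- cells. A second, dimmer Tgfb1 probe set went from 3.40 to 3.56 in Sca1+ and from 4.30 to 3.59 in Sca1- cells, so the fractions did not share a direction there.

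Tgfb2, a ligand whose propeptide is known to lack the integrin-binding site found in the others, read 6.73 and 6.78 in untreated Sca1+ and Sca1- cells and 6.37 and 6.61 with dox. Its 4 probe sets gave dox differences from -0.36 to 0.12 in Sca1+ and from -0.37 to -0.08 in Sca1- cells, none near 2-fold. Tgfb3, the ligand known for its rise in the involuting mammary gland, followed the sort more than dox. It read 5.41 in untreated Sca1+, 7.37 in untreated Sca1-, 6.35 in dox Sca1+ and 7.54 in dox Sca1- cells. The Sca1- arrays were the higher both times, 3.89-fold without and 2.27-fold with dox. With dox its level was higher by 1.93-fold in the Sca1+ and by 1.13-fold in the Sca1- fraction. The former, 0.95 on the log2 scale, passed 2-fold with the arrays centred on the median of probe sets above the floor (1.05) and with quantile normalization (1.01). Tgfb3 has 1 probe set, so this rests on a single measurement per array.

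The latent binding protein genes went apart. Ltbp1, which encodes the protein that links the latent ligand complex to the matrix, read 6.90 in untreated Sca1+, 4.22 in untreated Sca1-, 8.86 in dox Sca1+ and 8.01 in dox Sca1- cells. Both dox arrays lay above both untreated arrays, with a 3.89-fold difference in Sca1+ and a 13.8-fold difference in Sca1- cells. Sca1+ cells had 6.40 times the Ltbp1 level of Sca1- cells without dox and 1.80 times with dox. This pattern rests on the main probe set. Of the other 2 Ltbp1 probe sets, 1 never left the floor, and 1 was above it only in dox Sca1+ cells, at 3.65.

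Ltbp2 encodes a relative of Ltbp1 that joins elastic fibres and is known not to bind the latent ligand. It read 4.27 in untreated Sca1+, 7.63 in untreated Sca1-, the floor in dox Sca1+ and 5.78 in dox Sca1- cells. Both Sca1- arrays were above both Sca1+ arrays, 10.3-fold without dox and at least 5.49-fold with dox. With every value under 5 set to 5, the difference with dox was no longer past 2-fold (-0.78 on the log2 scale). With dox it was at least 1.92-fold lower in Sca1+ and 3.61-fold lower in Sca1- cells. Ltbp1 and Ltbp2 thus differed in opposite directions both by dox and by Sca1 on the main probe sets.

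Tgfbi, a secreted matrix protein that binds collagens and integrins and is induced by TGF-beta, had the largest dox difference of the 10 genes in Sca1+ cells and, after Ltbp1, the second largest in Sca1- cells, by the main probe sets. It read 11.06 in untreated Sca1+, 9.05 in untreated Sca1-, 5.50 in dox Sca1+ and 5.66 in dox Sca1- cells. Untreated Sca1+ cells had 4.0 times the level of untreated Sca1- cells, whereas the dox arrays differed by 1.12-fold. The level was 47.0-fold lower with dox in Sca1+ and 10.5-fold lower in Sca1- cells. All 4 Tgfbi probe sets showed both differences: 36.3-fold to 60.8-fold in Sca1+ cells, and 4.76-fold to at least 16.5-fold in Sca1- cells.

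Thbs1 encodes thrombospondin-1, a matricellular protein that can release the latent ligand and is itself raised by the pathway. Its main probe set read 8.73 in untreated Sca1+, 9.73 in untreated Sca1-, 4.85 in dox Sca1+ and 7.11 in dox Sca1- cells. Dox Sca1+ cells were the lowest and untreated Sca1- cells the highest. The level was 14.8-fold lower with dox in Sca1+ and 6.14-fold lower in Sca1- cells. The second probe set gave 4.97-fold and 5.44-fold, so the fractions were alike there, although it read 4.02 in dox Sca1+ cells, near the floor. One further probe set is assigned by the annotation to both Thbs1 and another gene and was not used. It was 10.3-fold lower with dox in Sca1+ and 3.22-fold lower in Sca1- cells, which cannot be credited to Thbs1 alone.

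The feedback genes did not share a direction. Smad7, the inhibitory Smad that blocks the type I receptor, read 7.30 in untreated Sca1+, 7.17 in untreated Sca1-, 5.36 in dox Sca1+ and 6.31 in dox Sca1- cells. It was 3.82-fold lower with dox in Sca1+ and 1.81-fold lower in Sca1- cells, and its second probe set gave 3.94-fold and 2.71-fold. Pmepa1, a membrane protein that binds Smad2 and Smad3 and keeps them from the receptor, read 11.55 and 11.76 in untreated Sca1+ and Sca1- cells and 9.44 and 10.64 with dox. It was 4.32-fold lower with dox in Sca1+ and 2.18-fold lower in Sca1- cells. The other 2 Pmepa1 probe sets gave larger differences, 7.64-fold and 9.82-fold in Sca1+ and 2.34-fold and 4.16-fold in Sca1- cells.

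Skil encodes SnoN, a corepressor of the Smads that is itself a target of the pathway. It read 9.65 in untreated Sca1+, 10.05 in untreated Sca1-, 10.44 in dox Sca1+ and 10.39 in dox Sca1- cells. Both dox arrays were above both untreated arrays, by 1.73-fold in Sca1+ and 1.27-fold in Sca1- cells. The dimmer Skil probe set gave 2.17-fold and 1.95-fold in the same direction.

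**Figure D2:**
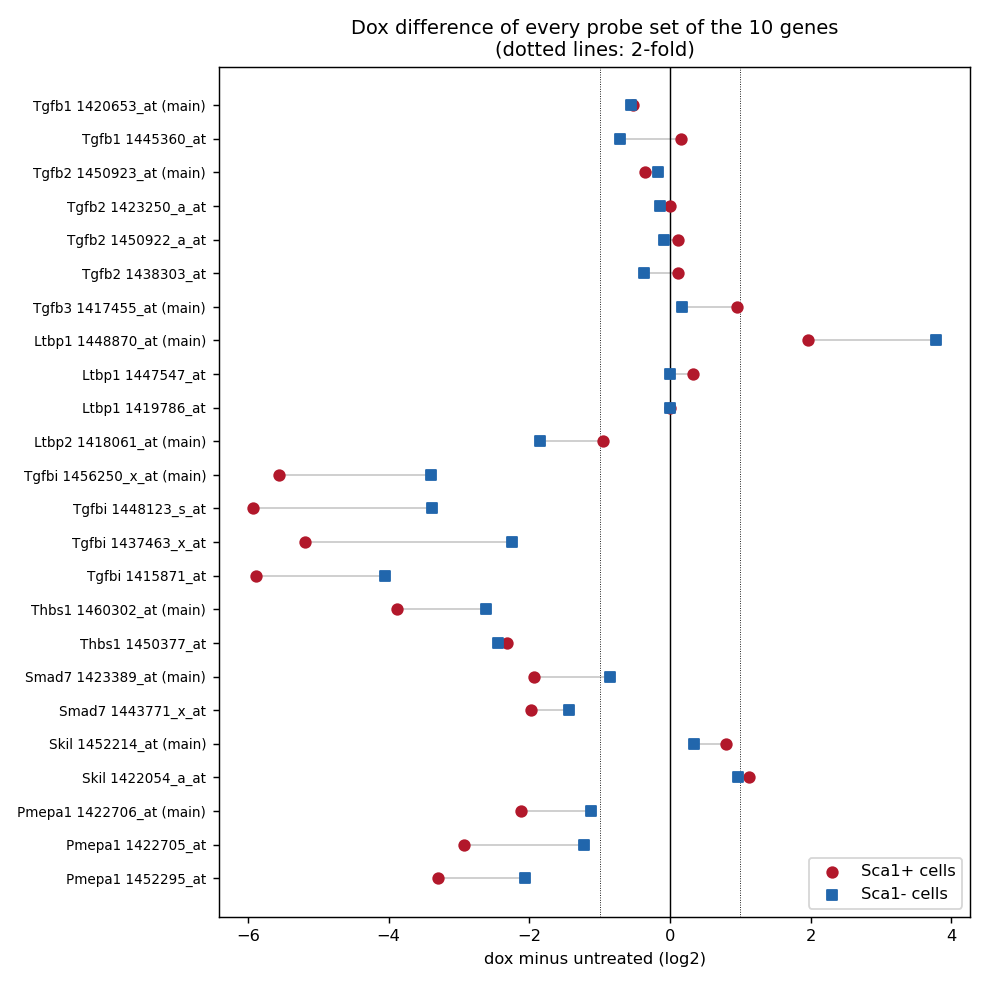
Dox minus untreated log2 difference (horizontal axis) of each of the 24 probe sets (rows), with circles for Sca1+ cells and squares for Sca1- cells. Dotted lines mark 2-fold. All probe sets of Tgfbi, Thbs1 and Pmepa1 lie beyond the lower 2-fold line in both fractions, while those of Tgfb2 lie near 0 and Ltbp1 is high by its main probe set only.

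The size of the dox difference was not the same in the fractions for several of the genes. The difference of the dox effects (Sca1+ minus Sca1-) was -2.16 for Tgfbi, -1.83 for Ltbp1, -1.27 for Thbs1 and -1.08 for Smad7 on the log2 scale. These 4 were below -1, where 3.44% of all genes were, and none of the 10 was above 1, where 3.69% were. All 4 Tgfbi probe sets gave values below -1, from -2.93 to -1.85. Probe sets disagreed for the others: the second of Thbs1 gave 0.13 and that of Smad7 gave -0.54. The other 2 of Ltbp1, at or near the floor, gave 0.33 and 0, and averaging the Ltbp1 probe sets gave -0.50. With the arrays centred on the median of probe sets above the floor, Smad7 stood at -0.98 by its main probe set. The value of the main Pmepa1 probe set was -0.99, and the other 2 gave -1.71 and -1.24. Each difference combines 4 single arrays and was not tested.

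**Figure D3:**
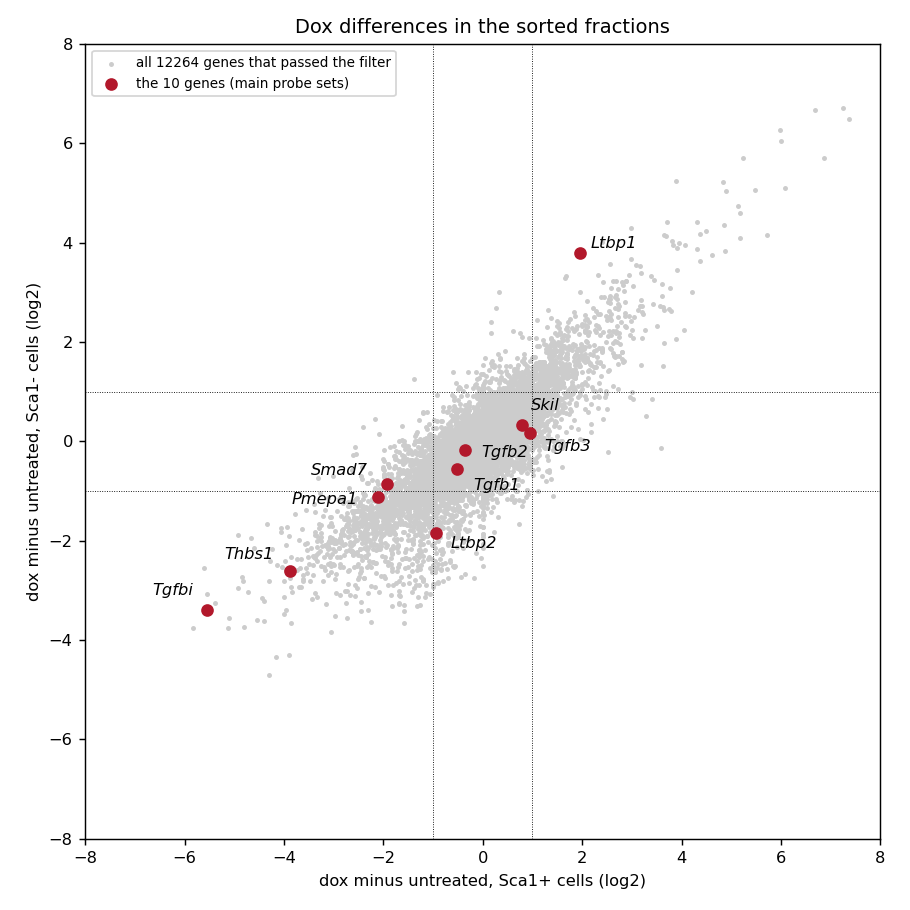
Dox minus untreated log2 difference in Sca1+ (horizontal axis) and Sca1- cells (vertical axis) for all 12264 genes that passed the filter (grey) and the 10 genes (red). Dotted lines mark 2-fold. Tgfbi, Thbs1 and Pmepa1 lie beyond the lower 2-fold line in both fractions, and Ltbp1 lies beyond the upper one in both.

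Without dox, Ltbp1 and Tgfbi were at least 2-fold higher in Sca1+ cells, where 3.07% of all genes were. Tgfb3, Ltbp2 and Thbs1 were at least 2-fold lower, where 3.33% were. With dox, Tgfb3, Ltbp2, Thbs1 and Pmepa1 were lower in Sca1+ cells against 2.98% of all genes, and none of the 10 was higher against 2.52%. Tgfb3, Ltbp2 and Thbs1 were lower both times, as 0.881% of all genes were. Thbs1 was 2.00-fold lower without dox and 4.82-fold lower with dox by its main probe set, but 1.86-fold and 1.70-fold by the second. Pmepa1 was 2.30-fold lower with dox by its main probe set and 3.96-fold and 3.52-fold by the others. The median log2 difference of the 10 genes was -0.13 without and -0.59 with dox, beside -0.01 and -0.03 over all genes. These Sca1 differences use the same 4 arrays as the dox differences.

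**Figure D4:**
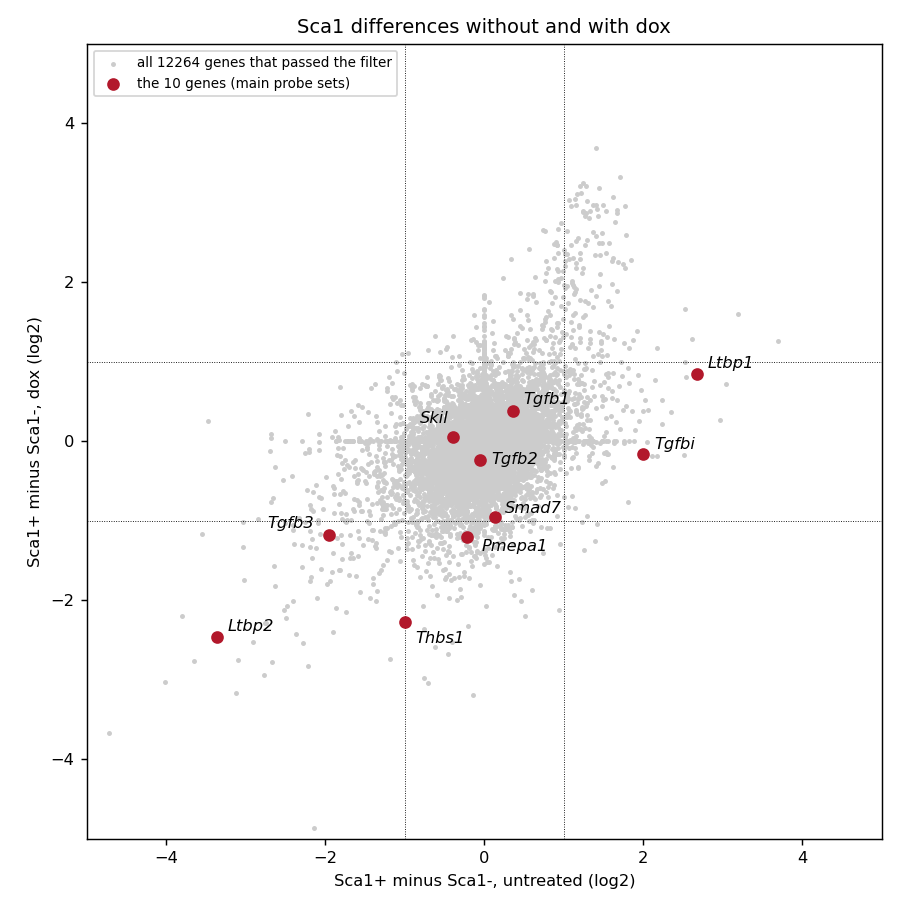
Sca1+ minus Sca1- log2 difference without dox (horizontal axis) and with dox (vertical axis) for all 12264 genes that passed the filter (grey) and the 10 genes (red). Dotted lines mark 2-fold. Ltbp2, Tgfb3 and Thbs1 lie at the lower left, and Ltbp1 and Tgfbi lie to the right of the upper 2-fold line without dox only.

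An additive limma fit of all 4 arrays, with terms for dox and for Sca1, leaves 1 residual degree of freedom and takes the sorted fractions of a treatment as separate samples. They may share a culture, so its p-values may be too small. The fit's only residual is the difference of the dox effects between the fractions, so its SE measures no replicate spread. That difference was -2.16 for Tgfbi and -1.83 for Ltbp1. The SE is moved from it toward a prior variance drawn from all genes. With the prior variance following the mean level, 7 of the 10 genes had a Benjamini-Hochberg adjusted p under 0.05 for dox, where 40.7% of all genes did. The dox term of Tgfbi was -4.47 ± 0.31 (SE, log2; limma adjusted p = 2.13e-08), that of Thbs1 -3.25 ± 0.22 (1.52e-08) and that of Ltbp1 2.87 ± 0.29 (1.09e-06). Pmepa1, Smad7, Ltbp2 and Skil also passed, and Tgfb1, Tgfb2 and Tgfb3 did not (limma adjusted p = 0.171, 0.317 and 0.0515), although Tgfb3 did with centred arrays. With a constant prior variance, Skil no longer passed (limma adjusted p = 0.0968), and the other 6 did, against 26.7% of all genes. The limma adjusted p was then 0.0117 for Tgfbi, 0.00988 for Thbs1 and 0.0191 for Ltbp1. For the Sca1 term the 2 fits differed: Tgfb3, Ltbp1, Ltbp2, Thbs1 and Pmepa1 passed with the varying prior, against 7.52% of all genes. None of the 10, and none of all genes, passed with the constant prior, where 4 of the 10 and 1679 of all genes had an unadjusted p under 0.05.

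The RefSeq promoter table of mouse assembly GRCm38.p6 held windows for 5 of the 10 genes. The 250 bases before the start are shown for Tgfbi, Ltbp2 and Ltbp1, the genes with the largest dox and Sca1 differences among those 5, to set their start regions side by side; 2 starts are listed for Ltbp1. Capitals mark CAGAC on either strand (CAGAC or GTCTG as printed), the 5-letter core that Smad3 and Smad4 are known to bind. The windows are Tgfbi at chr13:56609336-56609585 (plus strand), Ltbp2 at chr12:84876492-84876741 (minus strand), and Ltbp1 at chr17:75005279-75005528 and chr17:75178531-75178780 (both plus strand), each printed 5′ to 3′ along the gene.
Tgfbi: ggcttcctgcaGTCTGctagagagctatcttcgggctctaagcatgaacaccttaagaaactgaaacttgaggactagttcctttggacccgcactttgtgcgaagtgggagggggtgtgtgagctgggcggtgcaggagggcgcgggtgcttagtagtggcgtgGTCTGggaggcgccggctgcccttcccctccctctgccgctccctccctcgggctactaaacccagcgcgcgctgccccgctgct
Ltbp2: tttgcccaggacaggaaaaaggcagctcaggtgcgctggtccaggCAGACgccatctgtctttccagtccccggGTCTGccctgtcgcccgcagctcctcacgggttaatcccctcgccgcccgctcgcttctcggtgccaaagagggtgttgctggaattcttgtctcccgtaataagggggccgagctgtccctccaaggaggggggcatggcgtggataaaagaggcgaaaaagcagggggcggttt
Ltbp1, upstream start: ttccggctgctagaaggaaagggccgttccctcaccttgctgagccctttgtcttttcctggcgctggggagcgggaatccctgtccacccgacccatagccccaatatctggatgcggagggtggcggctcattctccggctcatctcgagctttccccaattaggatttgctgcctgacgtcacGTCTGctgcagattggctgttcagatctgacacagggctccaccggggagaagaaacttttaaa
Ltbp1, downstream start: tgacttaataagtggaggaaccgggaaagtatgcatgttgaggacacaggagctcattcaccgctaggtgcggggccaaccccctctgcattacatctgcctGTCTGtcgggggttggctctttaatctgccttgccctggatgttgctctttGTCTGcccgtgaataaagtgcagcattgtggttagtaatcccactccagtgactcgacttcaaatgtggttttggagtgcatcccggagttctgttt
Tgfbi held 2 matches, 239 and 85 bases before the start, Ltbp2 held 2, and the Ltbp1 windows held 1 and 2. Over all 32851 windows of this length, 42.2% held at least 1 match and 11.7% held 2 or more. The windows of Tgfb2 and Tgfb1 held 2 and 0. Matches were thus present before genes that were lower with dox (Tgfbi, Ltbp2), higher (Ltbp1) and little different (Tgfb2). A match is a description of the letters and not evidence of binding.

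Genes with the most similar pattern were sought for each of the 10 that was above the floor on all arrays and varied by at least 1 log2 unit. Likeness was the root mean square difference of the 4 log2 levels after each gene was centred on its own mean, among 10260 other genes. Tgfbi had 3 genes within 0.5: Pcolce2, an enhancer of procollagen processing (0.39), Fbln2, a fibulin of the matrix (0.48), and Crabp2, a retinoic acid binding protein (0.50). Thbs1 had 29 genes within 0.5, the nearest being Gm15867 (0.27), Nkd2, a Wnt antagonist (0.28), and Cp, the copper carrier ceruloplasmin (0.31). Ltbp1 had 1, the neuronal tubulin gene Tubb3 (0.34), followed by Serpinb2 (0.52) and Fbln1 (0.57). Tgfb3 had 102, led by the receptor kinase gene Kit (0.12), Tmem125 (0.13) and Srgap3 (0.20). The patterns of Smad7 and Pmepa1 were common, with 1269 and 802 genes within 0.5. Nearest to Smad7 were Nupr1 (0.01), Tmem216 (0.03) and Gadd45a (0.04), and nearest to Pmepa1 were Vegfb (0.03), Tmem141 (0.04) and Wwp2 (0.04). Each likeness rests on 4 values.

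Other genes of the pathway were read from 5 lists. Of 69 genes, 65 had a named probe set and 57 passed the filter; the others were not analysed here. In both fractions 11 of the 57 were at least 2-fold lower with dox (8.56% of all genes) and 5 were at least 2-fold higher (5.29%).

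Of 11 genes of ligand release and activation, 3 were lower in both fractions (8.56% of all genes), 1 was higher (5.29%) and 7 were neither. Itgb5, the beta subunit of an integrin that binds the latent complex, read 8.91 and 8.97 in untreated Sca1+ and Sca1- cells and 5.37 and 6.32 with dox, 11.7-fold and 6.30-fold lower. Its 4 probe sets were all beyond 2-fold in both fractions. Plau, the urokinase gene, was 3.55-fold and 2.12-fold lower, and Ltbp3, a further latent binding protein gene, 2.74-fold and 2.02-fold lower, the latter with 2 of its 4 probe sets beyond 2-fold. Plat, the tissue plasminogen activator gene, was 29.6-fold and 33.1-fold higher.

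Of 6 receptor and co-receptor genes, 2 were lower in both fractions (8.56% of all genes) and none higher (5.29%). Tgfbr1, the type I receptor, read 8.60 and 8.51 in untreated Sca1+ and Sca1- cells and 6.58 and 7.18 with dox, 4.06-fold and 2.50-fold lower. Tgfbr2, the type II receptor, went the other way, from 8.91 to 9.85 in Sca1+ and from 8.77 to 9.63 in Sca1- cells, 1.92-fold and 1.81-fold higher. Tgfbr3, the co-receptor betaglycan, was 1.44-fold and 1.26-fold higher. For each of these receptors 1 probe set passed the filter. Vasn, a membrane protein that binds the ligands, was 7.74-fold and 4.13-fold lower.

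Of 16 Smads, partners and inhibitors, 2 were lower in both fractions (8.56% of all genes), 1 was higher (5.29%) and 13 were neither. Smad2, Smad3 and Smad4, which carry the signal, had dox differences from -0.10 to 0.50 in Sca1+ and from 0.28 to 0.58 in Sca1- cells (log2). Bambi, a decoy receptor, was 4.11-fold and 3.38-fold lower, and Ski, a corepressor related to Skil, 2.81-fold and 2.37-fold lower, with 1 of its 2 probe sets beyond 2-fold in both fractions. Tgif1, a further corepressor, was 2.32-fold and 2.57-fold higher.

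Of 19 targets known to be raised by the pathway, 3 were higher in both fractions (5.29% of all genes), 2 lower (8.56%) and 14 neither. Lox, a collagen crosslinking enzyme, was 7.35-fold and 9.33-fold higher, Fn1, fibronectin, 4.57-fold and 2.13-fold higher, and Cdkn2b, a cell-cycle inhibitor, 2.43-fold and 2.46-fold higher. Postn, the periostin gene and a relative of Tgfbi, was 8.29-fold and 3.21-fold lower, and Klf10, an early-response factor, 5.35-fold and 2.46-fold lower. Of 5 targets known to be lowered by the pathway, 2 were lower in both fractions (8.56% of all genes), none higher (5.29%) and 3 neither. Id2, an inhibitor of helix-loop-helix factors, was 4.88-fold and 5.64-fold lower, and Cdc25a, a cell-cycle phosphatase, 2.05-fold and 2.23-fold lower. Id2 was past 2-fold with 2 of its 3 probe sets. Id3, a relative of Id2, went the other way, 2.01-fold and 1.75-fold higher, and is named here after its values were seen.

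**Figure D5:**
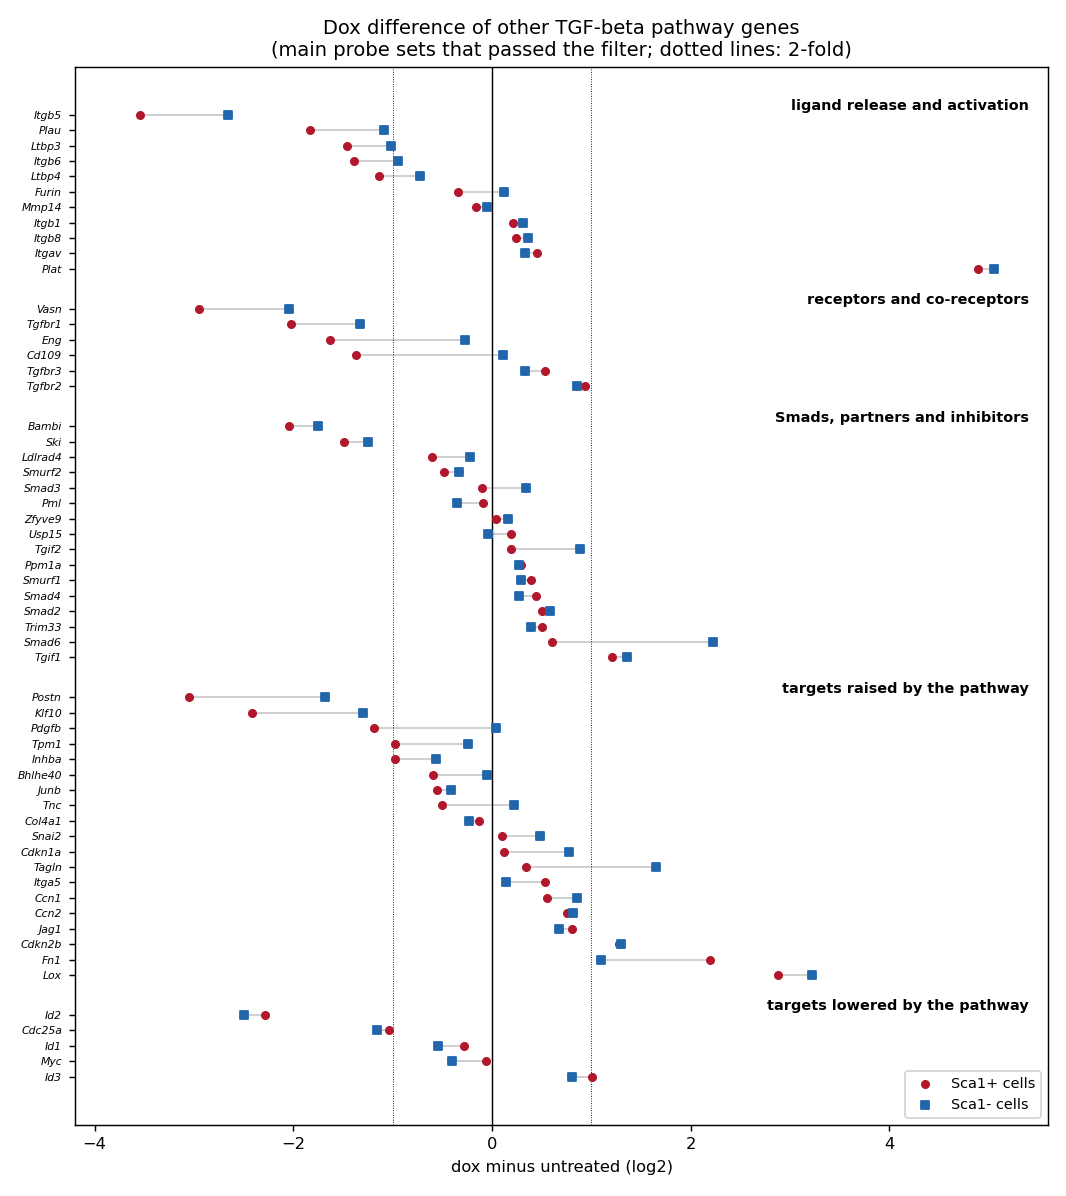
Dox minus untreated log2 difference (horizontal axis) of the 57 other pathway genes that passed the filter (rows, in 5 lists), with circles for Sca1+ and squares for Sca1- cells. Dotted lines mark 2-fold. Within the list of targets raised by the pathway, Postn and Klf10 lie beyond the lower line and Lox, Fn1 and Cdkn2b beyond the upper line in both fractions.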

How the data were processed

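Total RNA of 4 sorted samples was labelled by an Affymetrix 3′ IVT protocol, per the labels. The values deposited by the authors are log2 levels for 45101 probe sets with a floor at a linear level of 10; how they were summarized and scaled, and with which software, is stated in none of the sources. Genes were named from the platform annotation, in which 34958 probe sets have 1 symbol, 932 have several and 9211 have none here. A gene passed the filter when its highest array reached 3.63, the median of all values. Differences of log2 levels were taken between single arrays and counted at 2-fold or more. limma 3.58.1 (R 4.3.3) was run on all genes that passed, with Benjamini-Hochberg adjustment over all of them. It was also run on simulated data with independent noise on each array. That run cannot check whether the sorted fractions are separate samples. The number of arrays limits the precision.

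The genes and lists were chosen with earlier results of these data known. All probe sets of the 10 genes are named. Of the pathway lists, genes 2-fold different in the same direction in both fractions are named, at most 6 a list, besides the receptors Tgfbr1, Tgfbr2 and Tgfbr3, and Smad2, Smad3 and Smad4 as a range. The alternatives changed the array scaling, floor, probe set rule, filter, size and prior variance. No table of proteins was used here.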

Additional observations from a re-analysis of the deposited data

Results flagged for a closer look

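For 3 of the 10 genes, the Sca1 difference pointed one way without dox and the other way with dox; none of these changes of direction was tested, and each rests on single arrays. For Tgfbi it was 2.00 (log2, Sca1+ minus Sca1-) without dox and -0.16 with dox, where 1 of its 4 probe sets read 0.55 and so kept its direction. For Smad7 it was 0.13 and -0.95, although its second probe set was below 0 both times and the mean of its probe sets gave -0.04 without dox. For Skil it was -0.40 and 0.06, with the second probe set below 0 both times; with dox it was -0.01 under quantile normalization and -0.03 with its probe sets averaged.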

How the results depend on the processing

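No paired analysis was possible because no replicate numbers are shared beyond 1 array a group; the additive limma fit sets each factor within the levels of the other. The 245 recomputed differences of single genes include some that could not move. The setting of genes above the floor on all arrays reuses the main values of its 9 genes. Averaging leaves Tgfb3 and Ltbp2, with 1 probe set each, as they were. Across the 245, 220 kept their direction and their side of 2-fold, 9 dropped under it and 8 moved past it. A further 6, all under 2-fold, changed sign and 2 became 0: averaging probe sets gave -0.28 for Tgfb1 and -0.04 for Smad7 by Sca1 without dox, -0.03 for Skil by Sca1 with dox and 0.16 for Tgfb2 in the difference of dox effects, quantile normalization gave -0.01 for Skil by Sca1 with dox, and the stricter floor gave -0.36 for Tgfb1 in the difference of dox effects. Counts below have the share of all genes under the same setting in brackets. With the probe sets of a gene averaged, 3 of the 10 genes were past 2-fold by Sca1 without dox (4.72%) and 2 in the difference of dox effects (4.96%). The limma Sca1 term then called 0 of the 10 (0.0925%). Its unadjusted p was under 0.05 for 5 of the 10 and for 1870 of all 11888 genes in that setting. Ltbp1, whose other probe sets lie near the floor, had a dox difference of 0.76 in Sca1+ cells with its probe sets averaged. At 1.5-fold, 8 genes were past the size for dox in Sca1+ cells (39.9%) and 7 for the difference of dox effects (20.5%). At 3-fold, 2 were past it by Sca1 with dox (1.86%), 2 for the difference of dox effects (1.55%) and 7 of 57 pathway genes for dox in both fractions (5.59%). The limma Sca1 term called 3 of the 10 with quantile normalization (3.06%), 3 of 9 with genes above the floor on all arrays (4.54%) and 0 without the trend. Among all genes its calls went from 922 to 1186 with centring, 375 with quantile normalization, 466 above the floor, 11 with averaged probe sets and 0 without the trend; dox calls went from 4993 to 3277 without the trend. Centring the arrays on the median of probe sets above the floor moved the median dox difference of all genes in Sca1+ cells by 0.10 and the higher share of genes past 2-fold in the difference of dox effects from 51.7% to 64.8%. Values near the floor limit Ltbp2, which had no measured level in dox Sca1+ cells, and the dimmer probe sets of Ltbp1 and Tgfb1. They also limit the main Ltbp1 probe set, which read 4.22 in untreated Sca1- cells. With every value under 5 set to 5, its log2 dox difference in Sca1- cells was 3.01, against 3.79. Its Sca1 difference without dox was then 1.90 against 2.68, and its difference of dox effects -1.05 against -1.83. The dox difference of Tgfb1 in Sca1- cells was then -0.16 against -0.55.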

Other observations

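Of the 57 pathway genes, 7 had a difference of dox effects below -1, where 3.44% of all genes were, and 1 above 1, where 3.69% were. Of those outside the naming rule, 3 chosen after their values were seen are described here. Eng (-1.36, at the floor in dox Sca1+ cells) and Pdgfb (-1.23) were also outside it. Cd109, a co-receptor known to limit the signal, read 6.78 in untreated Sca1+ cells and 4.93, 5.41 and 5.04 in untreated Sca1-, dox Sca1+ and dox Sca1- cells, so it was high on 1 array. Smad6, an inhibitory Smad of the BMP branch, had a 4.67-fold higher level with dox in the Sca1- fraction and a 1.52-fold higher one in the Sca1+ fraction. Tagln, a smooth-muscle actin-binding protein, differed in the same direction by 3.14-fold in the Sca1- and 1.27-fold in the Sca1+ fraction. The differences between the fractions were not tested.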
